A study of Mus musculus with 16 samples.

Results

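The genes described here encode proteins that the gut epithelium secretes against microbes: the REG lectins Reg3a, Reg3b, Reg3g and Reg4, the intelectin Itln1, the resistin-like protein Retnlb (RELMbeta) and the beta-defensin Defb1. They are 7 of the 24940 genes in the deposited count table, matched by symbol, and all 7 passed the filter on low counts in every comparison. The set was chosen by family and role with earlier results of these libraries known. Itln1 had stood out there by its difference between the genotypes in males, and Defb1 by its difference between the sexes in knockout mice. How each gene entered the set is not recorded beyond that, so these 2 are treated as selected on those values, which are given as a description without a test.

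Poly(A) RNA was sequenced from 1 cm of ileum just proximal to the cecum of 16 C57BL/6 mice. Bcl6fl/fl mice, called WT, carried loxP-flanked Bcl6, the gene of a transcriptional repressor. Bcl6LKO mice, called LKO, carried the same floxed alleles and a Cre recombinase driven by the albumin promoter, which acts in hepatocytes, so the gene is targeted in the liver and not in the gut that was sequenced. Each of the 4 groups, males and females of either genotype, held 4 mice. Both genotypes carried the floxed alleles, and no group carried Cre without them. Mice were fed ad libitum or fasted for a few hours, and their ages were not given in the sources used here. Bcl6 in the ileum lay between 9.24 and 26.1 CPM over the 16 libraries, which is outside the targeted tissue and checks no label. Here CPM is counts per M (mega) after scaling by the trimmed mean of M-values (TMM).

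REG3 proteins are C-type lectins that bind and kill bacteria and help to keep microbes away from the surface of the small intestine, and their genes are known to respond to microbial signals and to interleukin-22 acting through STAT3. Intelectin-1 binds sugars found on microbial surfaces and is made by Paneth and goblet cells. RELMbeta is a goblet cell product known for its induction by type 2 cytokines, while Defb1 is known as a beta-defensin that many epithelia make without an inducing signal.

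Reg3b, Reg3a and Reg3g lie together on chromosome 6. In mm10 the deposited table places Reg3b (NM_011036) at chr6:78370885-78373466 on the plus strand, Reg3a (NM_011259) at chr6:78380709-78383839 on the plus strand and Reg3g (NM_011260) at chr6:78466269-78468874 on the minus strand. A stretch of 97.99 kb holds these genes and their relatives Reg3d, Reg2 and Reg1, 6 REG genes in all. Reg4 (NM_026328) is at chr3:98222156-98236748 on the plus strand, Itln1 (NM_010584) at chr1:171518124-171535294 on the minus strand, Retnlb (NM_023881) at chr16:48816856-48818892 on the plus strand and Defb1 (NM_007843) at chr8:21776555-21795185 on the plus strand. Each interval spans a whole gene, introns included, and the counts cover its exons.

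The promoters of Reg3b and Reg3g are shown because the levels of both genes rose and fell together over the libraries, and that of Reg3a because it lies between them and was far less abundant. The sequences are from RefSeq (GRCm38.p6), which matched 5 of the 7 genes, and give the 250 bases before the annotated start, 5′ to 3′ on the strand of the gene. Capitals mark matches, on either strand, to the STAT-type motif TTCNNNGAA and to TATAAA.
Reg3b: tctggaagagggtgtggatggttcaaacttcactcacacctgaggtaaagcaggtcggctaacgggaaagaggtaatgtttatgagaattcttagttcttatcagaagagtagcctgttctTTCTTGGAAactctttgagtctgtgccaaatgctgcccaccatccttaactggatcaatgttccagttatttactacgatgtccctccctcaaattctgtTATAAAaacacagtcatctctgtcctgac
Reg3g: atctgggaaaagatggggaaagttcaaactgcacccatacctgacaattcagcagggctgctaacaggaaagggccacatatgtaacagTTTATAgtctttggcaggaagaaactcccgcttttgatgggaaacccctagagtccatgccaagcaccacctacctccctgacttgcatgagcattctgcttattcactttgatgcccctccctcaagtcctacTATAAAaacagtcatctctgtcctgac
Reg3a: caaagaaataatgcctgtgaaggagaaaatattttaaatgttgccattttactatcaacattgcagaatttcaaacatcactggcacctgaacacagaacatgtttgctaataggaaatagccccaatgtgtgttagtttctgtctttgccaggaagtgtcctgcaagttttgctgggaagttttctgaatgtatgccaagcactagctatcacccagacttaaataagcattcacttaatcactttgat
The window is chr6:78370635-78370884 for Reg3b, chr6:78468875-78469124 for Reg3g and chr6:78380459-78380708 for Reg3a. A global alignment gave 68.9% identity between the Reg3b and Reg3g windows, and both ended in the same 20 bases, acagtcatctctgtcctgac, at the start site. The window of Reg3a had 49.3% identity with that of Reg3b and 50.6% with that of Reg3g, and the windows of Itln1 and Reg4 had between 46.4% and 49.4% with the others and with each other, Reg3a included. Reg3b held TATAAA from base 29 to base 24 before the start and Reg3g from base 27 to base 22. Reg3g held the same motif once more on the opposite strand, from base 161 to base 156. Among 32851 mouse promoter windows of this length 12.4% held TATAAA. The motif TTCNNNGAA, which reads the same on both strands, was found in Reg3b alone among these 5 genes, from base 129 to base 121, and in 7.02% of all windows. A match describes the letters only.

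The coding sequences of the 3 genes differed enough for reads to be assigned. Reg3b and Reg3g had 75.9% identical coding bases, Reg3a had 72.3% with Reg3b and 72.5% with Reg3g, and Reg4 had between 44.9% and 45.8% with the 3 Reg3 genes. No window of 100 bases, the read length, matched between any pair of these REG transcripts with 4 or fewer mismatches, and the closest windows of Reg3b and Reg3g had 15.

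The REG lectins spanned a wide range of levels. Reg3b had the highest level per kilobase of transcript (RPKM, scaled by TMM) of the 24940 genes, with 20772 ± 6768 (SD, n = 16 libraries). Reg3g ranked 4 with 11119 ± 5012. Itln1 ranked 23 with 1923 ± 432. Together the reads of Reg3b and Reg3g made up between 1.29% and 4.75% of a library. The other members were much lower: Reg4 had a level of 244 ± 98.4 RPKM, Reg3a 45.8 ± 19.7, Retnlb 24.9 ± 12.0 and Defb1 2.54 ± 2.15. In this order each gene was above the next within every library, except that Reg4 was above Reg3a in 15 of 16 and Reg3a above Retnlb in 13 of 16. The ranges of Reg3a, between 30.2 and 115 RPKM, and of Retnlb, between 9.54 and 50.6 RPKM, overlapped. The relatives in the cluster on chromosome 6 were low, with mean levels of 2.99 RPKM for Reg1, 0.822 for Reg3d and 0.0531 for Reg2.

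Gene counts per library came to 15.7 M at the least and 20.5 M at the most, apart from female LKO replicate 1, whose counts reached 60.3 M. A count of 0 allows up to 3 counts, or between 0.0497 and 0.191 CPM depending on the library, a bound that includes counting error alone. Ileal markers were high in every library, with Fabp6, the ileal bile acid binding protein, between 2692 and 5425 CPM and Slc10a2, the ileal bile acid transporter, between 426 and 816 CPM. The duodenal factor Pdx1 reached at most 0.191 CPM, but the 7 proximal small intestine markers, Pdx1 among them, summed to between 136 and 279 CPM. Their sum was highest in male LKO replicates 4 and 3, at 279 and 254 CPM, and its part in the levels of the members was not tested. Of 9 large-intestine markers in the table, Hoxd12 and Hoxd13 had 0 counts and Hoxb13 had 2 counts in all, but Car1, a carbonic anhydrase typical of cecum and colon, ran from 0 to 1155 CPM. It was over 100 CPM in 5 libraries: male WT replicates 3 and 4, male LKO replicate 2 and female WT replicates 1 and 4. Differences between 2 groups that moved by over 1.5 times or changed sign without these 5 libraries are given with and without them, a choice made after seeing the data. This leaves 2 WT mice of each sex, with 3 LKO males and 4 LKO females. In whole tissue, fewer cells of a type and less RNA per cell cannot be told apart. All p-values measure the spread between the mice of a group.

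**Figure D1:**
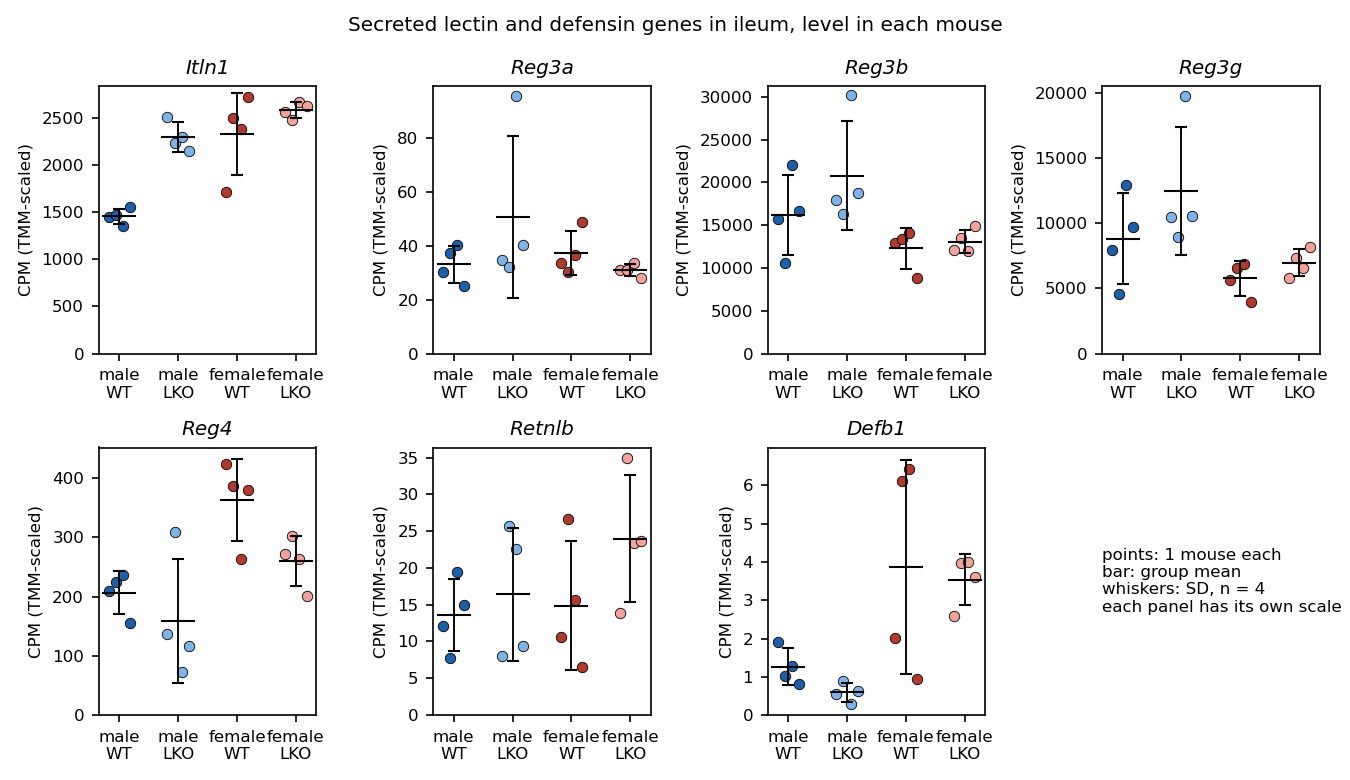
Level of each of the 7 genes in each mouse, in CPM scaled by TMM on linear axes that start at 0, for the 4 groups of 4 mice; the bar is the group mean and the whiskers the SD. Itln1 is lowest in the 4 male WT mice, Reg3a, Reg3b and Reg3g are highest in 1 male LKO mouse, and Defb1 is below 2 CPM in all male mice.

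Reg3b, known for its action on Gram-negative bacteria, was higher in every male than in every female among LKO mice, but the difference missed the threshold. Its level was 15726, 10579, 22000.0 and 16651 CPM in male WT mice, 17888, 16362, 30193 and 18712 in male LKO mice, 12941, 13334, 14111 and 8805 in female WT mice, and 12050.4, 13444, 11950.3 and 14852 in female LKO mice. The WT sexes overlapped and so did the genotypes in each sex, and male LKO replicate 3 was the highest of the 16. The difference between males and females in LKO mice was 0.67 ± 0.19 (log2 fold change ± SE, 4 mice per group), with an edgeR adjusted p of 0.112 over all genes, against a threshold of 0.05. In WT mice it was 0.39 ± 0.24 (edgeR adjusted p = 0.509). The LKO against WT difference was 0.36 ± 0.29 in males (edgeR adjusted p = 0.999) and 0.09 ± 0.14 in females (edgeR adjusted p = 0.825).

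Reg3g, known for killing Gram-positive bacteria, followed Reg3b. Its level was 7941, 4585, 12958 and 9756 CPM in male WT mice, 10510.5, 8978, 19773 and 10609 in male LKO mice, 5689.9, 6589, 6886 and 3931 in female WT mice, and 5793, 7352, 6537 and 8207 in female LKO mice. Again the LKO sexes did not overlap, with males higher, and each other pair of groups did. Males exceeded females by 0.84 ± 0.26 in LKO mice (edgeR adjusted p = 0.139) and by 0.60 ± 0.34 in WT mice (edgeR adjusted p = 0.490). The LKO against WT difference was 0.51 ± 0.40 in males (edgeR adjusted p = 0.999) and 0.27 ± 0.18 in females (edgeR adjusted p = 0.558).

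Several of these differences rested on single mice. Without male LKO replicate 3, the highest library for both genes, the sex difference in LKO mice was 0.43 for Reg3b and 0.52 for Reg3g, and the genotype difference in males was 0.12 and 0.19. Without the 5 libraries rich in Car1 the genotype difference in males was larger, at 0.76 ± 0.35 for Reg3b and 1.12 ± 0.49 for Reg3g (edgeR adjusted p = 0.818 for both). In the same fits the sex difference in WT mice was -0.07 for Reg3b and -0.11 for Reg3g, and the genotype difference in females was -0.07 for Reg3b and 0.05 for Reg3g.

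Reg3a, a further REG3 lectin of the same cluster, lay between 25.0 and 48.8 CPM in 15 of the 16 mice. It was 30.1, 37.2, 40.1 and 25.0 CPM in male WT mice, 34.8, 32.2, 95.4 and 40.4 in male LKO mice, 33.7, 30.4, 36.4 and 48.8 in female WT mice, and 30.9, 30.9, 33.5 and 28.2 in female LKO mice. Only male LKO replicate 3 stood above 50 CPM, and all groups overlapped. The genotype difference was 0.62 ± 0.41 in males and -0.27 ± 0.13 in females, and the sex difference was -0.18 ± 0.19 in WT and 0.71 ± 0.37 in LKO mice (edgeR adjusted p of 0.999, 0.444, 0.705 and 0.308). Without male LKO replicate 3 the values that include this mouse were 0.12 for the genotypes in males and 0.21 for the sexes in LKO mice. Without the Car1-rich libraries it was -0.11 for the genotypes in females and 0.004 for the sexes in WT mice.

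Over the 16 libraries log2 CPM of Reg3b and Reg3g had a Pearson r of 0.987 and a Spearman rho of 0.982, an r of 0.972 when the 2 libraries with the most extreme Reg3b were left out, and an r of 0.985 after the group means were removed. These are descriptions over libraries that share groups and scaling. Reg3a had an r of 0.455 with Reg3b, which was 0.202 without the 2 farthest libraries. The ratio of Reg3b to Reg3g per kilobase was 1.96 ± 0.293 in WT and 1.74 ± 0.130 in LKO males, and 2.19 ± 0.131 in WT and 1.92 ± 0.132 in LKO females (SD, n = 4 per group), and it lay between 1.56 and 2.35 in the single libraries. Reg3b was thus the more abundant of the pair in every mouse. A two-sided exact permutation test of the ratio gave p = 0.257 for the genotypes in males, 0.0857 for the genotypes in females, 0.2 for the sexes in WT and 0.0571 for the sexes in LKO mice, where the smallest possible p was 0.0286. Adjusted over these 4 comparisons the lowest value was 0.171. At this group size no comparison alone could have gone below 0.05 after the adjustment, so the adjusted values decide little.

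**Figure D2:**
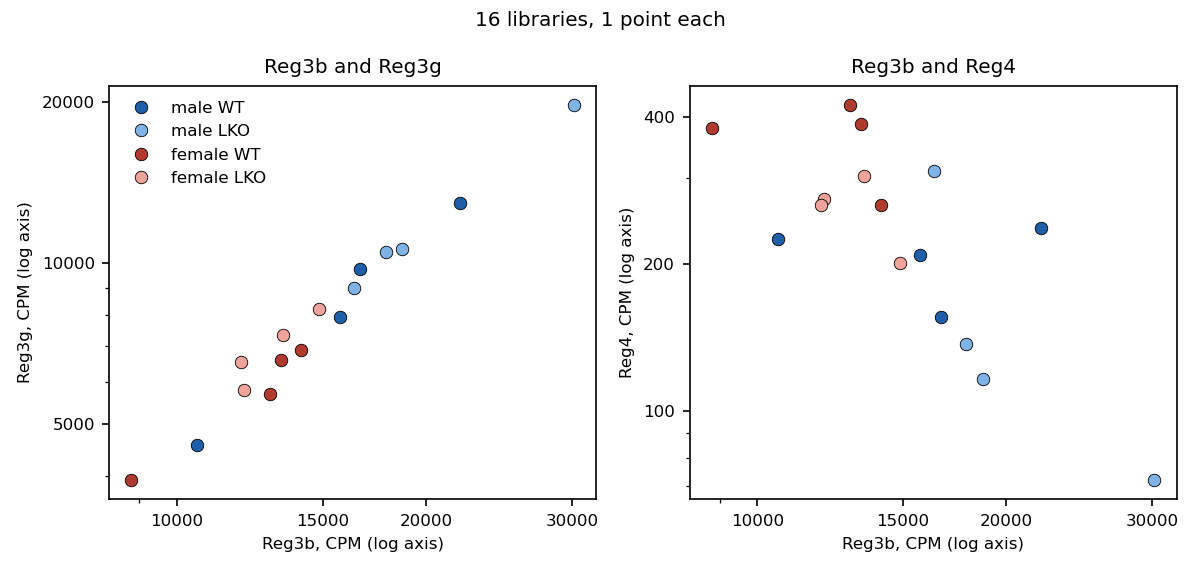
Reg3b against Reg3g (left) and against Reg4 (right) in the 16 libraries, in CPM on log axes, with 1 point per mouse coloured by group. Reg3g rises with Reg3b over all groups, while Reg4 is lowest, at 72.0 CPM, in the male LKO mouse with the most Reg3b, 30193 CPM.

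Apart from each other, the gene most like Reg3b and Reg3g after the group means were removed was Dmbt1, which encodes a secreted scavenger receptor protein of mucosal surfaces, with an r of 0.937 and 0.909 over 16 libraries. B3gnt7, a glycosyltransferase gene, came next for Reg3b (r = 0.908) and Fut2, the gene of a fucosyltransferase, for Reg3g (r = 0.900). With Spearman rank correlation, Saa1, a serum amyloid A gene, took the third place for both. Dmbt1 lay between 3897 and 6368 CPM in male LKO mice and between 2448 and 3378 CPM in female LKO mice, a difference of 0.70 that also missed the threshold (edgeR adjusted p = 0.0784). For Reg3a the most alike genes were Dapk3 (r = 0.870), Osbpl9 (r = 0.854) and Ppp1cc (r = 0.842). With group means kept these r were lower, at 0.654, 0.529 and 0.461. Without the 2 libraries where Reg3a was most extreme they were 0.410, 0.375 and 0.265.

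Reg4, a REG lectin of secretory and enteroendocrine cells of the gut, was lower in every male than in every female among WT mice, a difference whose call changed with the setting. It was 209, 225, 236 and 156 CPM in male WT mice, 137, 309.7, 72.0 and 116 in male LKO mice, 424, 387, 264 and 379 in female WT mice, and 271, 303, 264 and 201 in female LKO mice. The WT sexes did not overlap, whereas 1 male LKO mouse stood above all female LKO mice. Males were lower than females by -0.82 ± 0.18 in WT mice on the log2 scale (edgeR adjusted p = 0.136). The difference was past the threshold with DESeq2 (adjusted p = 3.11e-05) and, with edgeR, without female WT replicate 3 (-0.95, adjusted p = 0.0173), and the adjusted p was between 0.0612 and 0.434 under the other alternatives. In LKO mice the sex difference was -0.71 ± 0.45 (edgeR adjusted p = 0.390), and it was -1.27 without male LKO replicate 2, the high mouse. The LKO against WT difference was -0.48 ± 0.16 in females (edgeR adjusted p = 0.333) and -0.38 ± 0.46 in males (edgeR adjusted p = 0.999). In males it was -0.92 without male LKO replicate 2 and -0.998 ± 0.30 without the Car1-rich libraries, of which that is one (edgeR adjusted p = 0.700).

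Reg4 and Reg3b had a Pearson r of -0.755 and a Spearman rho of -0.659 over the 16 libraries, which was -0.516 without the 2 farthest libraries and -0.513 after group means were removed. With Reg3g the r was -0.773. Genes most like Reg4 after group means were removed were Timp2, a metalloproteinase inhibitor gene (r = 0.892), Pcp4 (r = 0.882) and Prph, which encodes the neuronal filament protein peripherin (r = 0.863). None of these 3 was among the top genes by Spearman rank correlation. Markers of enteroendocrine cells summed to between 303 and 436 CPM, and those of goblet cells to between 18282 and 23368 CPM, over the 16 libraries. After group means were removed Reg4 had an r of 0.585 with the goblet cell markers and of -0.118 with the enteroendocrine markers. With group means kept these were 0.232 and -0.197. Reg4 and Car1 had an r of 0.204, and of 0.393 after group means were removed. The part of the sampled site in the level of Reg4 was not tested. Of the enteroendocrine markers Chgb, a granule protein gene, was lower in LKO mice over both sexes by -0.30 ± 0.06 (edgeR adjusted p = 0.0458).

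**Figure D3:**
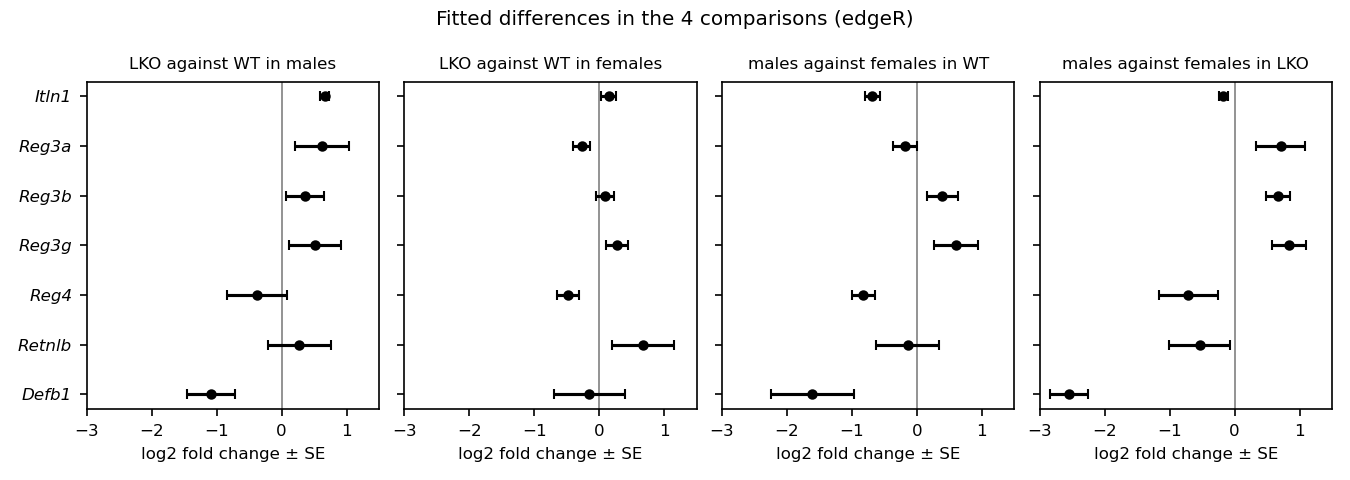
Log2 fold change of each gene, with its standard error as whiskers, in the 4 comparisons of 2 groups of 4 mice, from edgeR. Reg3b and Reg3g lie to the right and Reg4 and Defb1 to the left of 0 in both comparisons of males with females, and Itln1 has the narrowest errors in the male genotype comparison.

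Itln1 was lowest in male WT mice. It was 1450.5, 1476, 1359 and 1554 CPM in male WT mice, 2515, 2234, 2300.4 and 2154 in male LKO mice, 1717, 2508, 2389.7 and 2732 in female WT mice, and 2563, 2479, 2671 and 2628 in female LKO mice. The 4 male WT values lay below the 12 others, and the other 3 groups overlapped. The difference between LKO and WT males, by which the gene was chosen, was 0.66 ± 0.07 on the log2 scale and is given without a test. Male WT mice were also lower than female WT mice by -0.69 ± 0.12, a comparison that shares the male WT mice with the choice and is likewise no independent test. In females, where the rule was not used, LKO exceeded WT by 0.15 ± 0.12 (edgeR adjusted p = 0.626), and female WT replicate 1, at 1717 CPM, was the lowest of the 8 females. Without that mouse the female difference was 0.02, and without the Car1-rich libraries, of which it is one, 0.08. In LKO mice the sexes differed by -0.17 ± 0.06.

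The Paneth cell genes of the ileum moved with Itln1. The 16 markers, among them Lyz1 and 8 alpha-defensins, summed to between 15115 and 17487 CPM in male WT, between 20664 and 26754 in male LKO, between 20056 and 28315 in female WT and between 24028 and 28307 in female LKO mice. In LKO against WT males 15 of the 16 were higher and 2 passed the threshold, which were Lyz1, the gene of Paneth cell lysozyme, with 0.64 ± 0.09 (edgeR adjusted p = 0.0089), and Mmp7, which encodes the protease that activates alpha-defensins, with 0.47 ± 0.08 (edgeR adjusted p = 0.0442). In WT males against females 14 of the 16 were lower and 2 passed, Defa17 and Defa24. Of all genes tested, 7468 of 15169 were higher in the first comparison and 0.0527% were called. In the second, 7343 of 15229 were higher and 0.25% were called. Both comparisons hold the same 4 male WT mice, which also belong to the contrast that chose Itln1, so their counts are not separate. Itln1 had an r of 0.973 with the mean of 15 of these markers that were abundant enough to be used, a Spearman rho of 0.882 and an r of 0.879 after group means were removed. As a percentage of the marker sum Itln1 was 9.004 ± 0.407 in male WT, 9.92 ± 0.818 in male LKO, 9.14 ± 0.763 in female WT and 9.82 ± 0.567 in female LKO mice (SD, n = 4 per group), between 8.44 and 11.1 in all. The male WT and male LKO percentages did not overlap, but differed far less than the levels themselves. The part of Paneth cell number in the level of Itln1 was not tested.

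The 12 goblet cell markers had an r of -0.419 with Itln1 over all libraries and 0.235 after group means were removed. The 3 genes most like Itln1 after group means were removed were the alpha-defensin genes Defa24 (r = 0.868) and Defa6 (r = 0.865) and the colipase gene Clps (r = 0.826). Defa24 and Defa6 are annotated on overlapping intervals of chromosome 8 on the same strand, so their reads cannot be told apart. None of these 3 was among the top 3 by Spearman rank correlation.

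**Figure D4:**
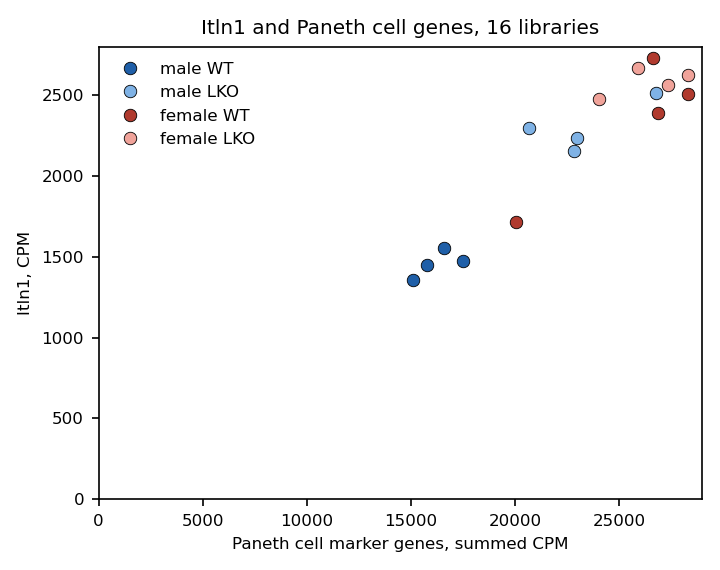
Itln1 in CPM against the summed CPM of 16 Paneth cell marker genes in the 16 libraries, both axes linear and from 0, with 1 point per mouse. The 4 male WT mice sit apart at the lower left, at 15115 to 17487 CPM of markers and 1359 to 1554 CPM of Itln1.

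Retnlb had the largest spread on the log2 scale within groups among the members above 5 CPM, and it passed the threshold in no comparison of 2 groups. It was 12.1, 7.78, 19.4 and 15.0 CPM in male WT mice, 7.99, 25.7, 22.6 and 9.42 in male LKO mice, 10.6, 26.7, 15.7 and 6.58 in female WT mice, and 13.9, 34.9, 23.4 and 23.7 in female LKO mice. All 4 groups overlapped when every library was kept. LKO against WT gave 0.67 ± 0.48 in females (edgeR adjusted p = 0.603) and 0.27 ± 0.49 in males (edgeR adjusted p = 0.999), and males against females gave -0.14 ± 0.48 in WT and -0.54 ± 0.47 in LKO mice (edgeR adjusted p of 0.929 and 0.537). Without the Car1-rich libraries the WT sexes differed by -1.09 ± 0.33 (2 mice per sex, edgeR adjusted p = 0.500). In the same fits it was 0.16 between the genotypes in females, 0.41 between the genotypes in males and -0.85 between the sexes in LKO mice. Within groups its r with Reg3b was 0.609 and with Reg3g 0.634. Over the libraries, with group means kept, the r was lower, at 0.302 and 0.357. It was -0.0297 and 0.0861 without the 2 libraries where the Reg3 gene of the pair was most extreme. The gene most like it was Oasl1, an interferon-induced gene (r = 0.832), followed by Fam83g (r = 0.809) and Lpin1 (r = 0.801).

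Defb1 had few reads, and male LKO mice were below female LKO mice. It had 38, 16, 23 and 16 counts in male WT mice, 11, 15, 5 and 12 in male LKO mice, 35, 111, 117 and 17 in female WT mice, and 160, 65, 71 and 68 in female LKO mice, the first of which is the deepest library. In CPM these were 1.92, 1.02, 1.29 and 0.821 in male WT, 0.560, 0.897, 0.292 and 0.621 in male LKO, 2.01, 6.11, 6.42 and 0.932 in female WT and 2.59, 3.97, 3.99 and 3.61 in female LKO mice. The LKO sexes did not overlap. That difference, by which the gene was chosen, was -2.55 ± 0.29 on the log2 scale and is given without a test.

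In WT mice, which the choice of Defb1 did not use, males were lower than females by -1.61 ± 0.64 (edgeR adjusted p = 0.327), and the sexes overlapped. The female WT mice fell apart, with 2.01 and 0.932 CPM in the libraries where Car1 was 916 and 259 CPM, and 6.11 and 6.42 CPM in the libraries where Car1 was 0.441 and 0.494 CPM. The males did not split in this way. In male WT mice Defb1 was 1.29 and 0.821 CPM where Car1 was 305 and 536 CPM, and 1.92 and 1.02 CPM where Car1 was 0.707 and 5.93 CPM. The male LKO library with the most Car1, 1155 CPM, had the most Defb1 of its group, 0.897 CPM. Without the 5 libraries rich in Car1 the WT sex difference was -2.06 ± 0.30 (n = 2 per sex, edgeR adjusted p = 0.0056). These libraries were left out after the data were seen. They include the 2 female WT mice with the least Defb1, so this is no independent test. Over the 16 libraries Defb1 and Car1 had an r of -0.390 and an r of -0.499 after group means were removed, and the part of the sampled site in the level of Defb1 was not tested. LKO against WT in females was -0.16 ± 0.55, which was -0.85 without the Car1-rich libraries, and in males it was -1.09 ± 0.37. Both genotype comparisons share their LKO mice with the choice and are given without a test.

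The genes most like Defb1 after group means were removed were Mir147 (r = 0.874) and AA467197 (r = 0.846), of which the first lies inside the second on the same strand of chromosome 2, so that they share reads, and Tbxas1, the thromboxane synthase gene (r = 0.785).

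**Figure D5:**
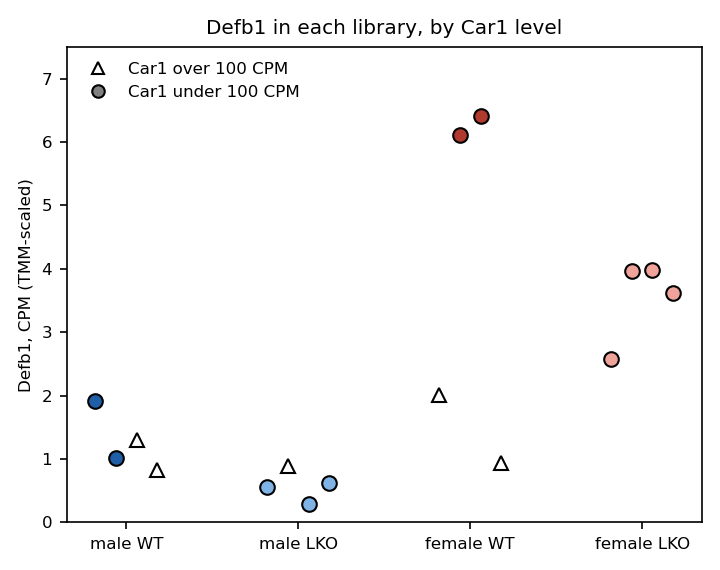
Defb1 in CPM (linear axis from 0) in each library of the 4 groups; triangles mark the 5 libraries with Car1 over 100 CPM and circles the 11 others. The female WT triangles, at 0.932 and 2.01 CPM, lie with the males, and the female WT circles, at 6.11 and 6.42 CPM, lie highest.

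With an edgeR adjusted p below 0.05 and all libraries kept, no member other than the genes chosen by their values, Itln1 and Defb1, was called in any comparison. The contrasts that chose these 2 genes are not read as tests of them. Apart from Itln1, no member was called in LKO against WT males, where 0.0527% of the 15169 genes tested were. In LKO against WT females 0 of 7 were called with edgeR, beside 0.0392% of 15298 genes, with 1 member, Reg4, at an unadjusted p below 0.05, beside 11.7% of genes, and DESeq2 called 0 members, beside 1.01% of genes. In WT males against females 1 was called (Itln1, whose call several alternatives removed), beside 0.25% of 15229 genes. That comparison shares the male WT mice with the choice of Itln1 and is no independent test of it. DESeq2 called 2 in that comparison (Itln1 and Reg4), beside 1.64% of genes. Without the Car1-rich libraries, left out after the data were seen, edgeR called 2 (Itln1 and Defb1), beside 0.51%. Apart from Defb1, which this contrast chose, no member was called in LKO males against females, where 0.0984% of 15250 genes were. Over both sexes, with sex as a covariate, 0 of 7 differed between the genotypes, beside 0.269% of 15598 genes. There Itln1 was the 1 member with an unadjusted p below 0.05, as were 11.2% of genes, and DESeq2 called it, beside 1.44% of genes. This fit holds the males by which Itln1 was chosen and is no independent test of it. No member and none of the 15598 genes (0.0%) passed for the interaction of genotype and sex with edgeR. At an unadjusted p below 0.05 there were 1 member, Itln1, and 879 genes (5.64%), and DESeq2 called 0 members and 0 genes (0.0%). The interaction holds the same males and is likewise no independent test of Itln1.

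By ranges, 1 of 7 members had groups without overlap for the genotypes in males (Itln1), where 2.97% of genes did. None did for the genotypes in females, where 6.31% of genes did. For the sexes in WT mice 2 did (Itln1 and Reg4), against 8.38% of genes, and for the sexes in LKO mice 3 did (Reg3b, Reg3g and Defb1), against 12.9% of genes. Itln1 and Defb1 count here by their choice. Of the 5 members not chosen on a contrast, 1 was without overlap in WT and 2 in LKO mice.

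The members other than Itln1 spread widely between mice of a group. The SD of log2 CPM within groups was 0.16 for Itln1, 0.42 for Reg3a, 0.34 for Reg3b, 0.46 for Reg3g, 0.50 for Reg4, 0.72 for Retnlb and 0.76 for Defb1, where the median of 11772 genes with a mean of at least 5 CPM was 0.13. Among these genes Reg3b was at percentile 96.3, Reg3a at 98.2, Reg3g at 98.6, Reg4 at 98.8 and Retnlb at 99.6, while Itln1 was at 67.5.

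Few other genes of these pathways passed the threshold. Of the genes of the IL-22, STAT3 and MyD88 axis, which acts upstream of the Reg3 genes, none of the 21 to 23 tested was called in any comparison with edgeR, and between 0 and 4 had an unadjusted p below 0.05. Il22 itself was between 0 and 1.18 CPM, while its receptor gene Il22ra1 lay between 166 and 260.5 CPM, Stat3 between 212 and 268 CPM, the kinase gene Jak1 between 131 and 162 CPM, the receptor subunit gene Il10rb between 95.5 and 119.98 CPM and the STAT3 feedback gene Socs3 between 32.4 and 123 CPM. Their list had a median difference of 0.02 in males and 0.04 in females between the genotypes, where the median of all genes tested was -0.002 and 0.007.

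Of the type 2 axis upstream of Retnlb, 14 genes were tested. Il4ra, a receptor subunit for interleukin-4 and interleukin-13, was higher in LKO mice over both sexes by 0.25 ± 0.05 (edgeR adjusted p = 0.0321), and no other gene of the list was called in any comparison with edgeR. Clca1, a goblet cell product, lay between 3442 and 5221 CPM, Stat6, which transmits both cytokine signals, between 169 and 206 CPM and Il13ra1 between 123 and 199 CPM. Il13 was between 0 and 0.219 CPM and Il33 between 5.28 and 10.6 CPM. Of 17 other secreted antimicrobial genes tested in males, Lyz1 was the only one called between the genotypes, and no gene of that list passed in the other comparisons. Pigr, the receptor that carries antibodies into the lumen, lay between 4503 and 6666 CPM and the bacteria-binding Lypd8 between 2707 and 4836 CPM. Of 4 genes tested for the processing or release of antimicrobial proteins, Mmp7 was the only one called, in males as given above. Of 8 ileal defence genes tied to FXR, the bile acid receptor, Ang, an angiogenin gene, was lower in WT males than in WT females by -0.49 ± 0.08 (edgeR adjusted p = 0.0334), and the other comparisons gave no call. Of 15 relatives in the table, 6 had 0 counts and none of the 5 or 6 tested was called with edgeR. The most abundant relatives were Retn, the resistin gene, between 2.05 and 23.3 CPM, Defb37 between 1.09 and 7.13 CPM and Retnla between 0.175 and 6.03 CPM. The beta-defensin gene Defb2 had 0 counts in all libraries.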

How the data were processed

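Stranded mRNA libraries of ileum were sequenced as 100-base single-end reads. The authors aligned them to mm10 with STAR 2.5.2, keeping reads that mapped to 1 position with at most 4 mismatches, and counted exon reads per gene with HOMER 4.10. The deposited values are raw counts, and the strand setting of the counting is not given in the sources used here. Groups and replicate numbers came from sample titles.

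Differences were fitted across all genes in R 4.3.3 with the robust quasi-likelihood F-test of edgeR 4.0.16, with TMM scaling, filterByExpr and Benjamini-Hochberg adjustment at 0.05. Pairs of groups were fitted on their 8 libraries, and the effect over both sexes and the interaction on all 16. The SE is the log2 fold change divided by the square root of F. Log2 CPM used a prior count of 2, and RPKM is TMM-scaled CPM per kilobase of the deposited gene length. The scripts were tested on simulated data. DESeq2 1.42.0, other scalings and filters, a replicate block and leaving out each mouse were alternatives. Same-numbered mice had correlations of their deviations between -0.104 and 0.256.

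All 7 members were named, with the 3 genes most like each by Pearson r of log2 CPM after group means were removed, among genes of at least 5 CPM, and from each gene list up to 4 genes, those past the threshold or otherwise the most abundant. Car1, Defb2, Il22, Il13, Il33, Socs3, Reg1, Reg2, Reg3d, Pdx1 and the Hox genes were named after their values were seen. The members and lists were chosen with earlier results of these data known. A check that needs 1 further gene is not reported here. Promoters were aligned end to end with a match of 1, a mismatch of -1 and a gap of -2.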

Additional observations from a re-analysis of the deposited data

Results flagged for a closer look

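Dixon's test was run on CPM on the linear scale, whereas the fits, spreads and correlations used the log2 scale. Among 28 sets of 4 mice (7 genes in 4 groups), 3 held a value that it put apart from the other 3 mice. Chance flags about 1 in 20 sets. All 3 were male LKO replicate 3. Its Reg3a level was 95.4 CPM, where the other male LKO mice had 32.2 to 40.4 CPM. Its Reg3b level was 30193 CPM, where the others had 16362 to 18712 CPM. Its Reg3g level was 19773 CPM, where the others had 8978 to 10609 CPM. Reg3b passed the limit of the test only narrowly. Reg3b and Reg3g had an r of 0.985 after group means were removed, so their flags are not separate. The flags were not tested on the log2 scale and hold for linear CPM only. Male LKO replicate 3 also had the lowest Reg4, 72.0 CPM, and the lowest Defb1, 0.292 CPM, of all 16 libraries. Its 10 most abundant genes took 9.68% of its counts, the highest share of the 16. That share holds Reg3b and Reg3g, which together made up 4.75% of this library, so it is no separate trait. The cause was not tested.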

How the results depend on the processing

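In the contrasts they were selected on, Itln1 in males ran from 0.62 to 0.76 and Defb1 between the LKO sexes from -2.81 to -2.34 over the alternatives, as a description. Defb1 was left untested between the LKO sexes where at least 10 counts were required in every library. In WT mice of the 2 sexes DESeq2 called 2 members (Itln1 and Reg4) and 250 genes, where edgeR called 38 genes, while the non-robust fit and the filter of at least 10 counts in every library called 0, and leaving out single mice gave 0 to 1. Itln1 was not called without any 1 of male WT replicates 1 to 4 or of female WT replicates 2 and 3, and without the last of these Reg4 was called in its place. Without the libraries with Car1 over 100 CPM, added after seeing the data, 2 were called (Itln1 and Defb1), and 78 of 15301 genes. Over both sexes DESeq2 called 1 (Itln1), and 224 genes, and leaving out single mice gave 0 to 1, with Itln1 called without female WT replicate 4. For the interaction leaving out single mice gave 0 to 1, with Itln1 called without female WT replicate 1. The fits over both sexes and for the interaction hold the males by which Itln1 was chosen and are no independent test of it. The causes of these changes in the calls were not tested. Outside the contrasts that chose a gene, the replicate block gave 0 members in females, 1 between the WT sexes and 0 over both sexes. It gave 0 for the interaction, and all these counts were as without it. The replicate numbers share no known animal or batch.

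Fold changes that changed sign were all uncalled. Leaving out single mice, those of Retnlb ran from -0.032 to 0.50 between the male genotypes and from -0.39 to 0.31 between the WT sexes, those of Reg3b from -0.044 to 0.16 and of Defb1 from -0.48 to 0.21 between the female genotypes, those of Reg3a from -0.095 to 0.27 over both sexes, and those of the interaction from -0.085 to 0.48 for Reg3g and from -0.44 to 0.35 for Reg4. With the replicate block Defb1 was 0.089 in females and Reg4 -0.016 in the interaction. With the title number as covariate Reg3a was -0.027 over both sexes. Without the Car1-rich libraries Reg3b was -0.070 in females, the WT sexes differed by 0.0039 for Reg3a, -0.067 for Reg3b and -0.11 for Reg3g, and the interaction was -0.66 for Reg4 and 0.26 for Retnlb.

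With 4 mice per group the SE of the log2 fold changes of the members reached 0.64 in the pairs of groups, so moderate differences of the variable genes were not detectable, and Defb1 rested on 5 to 160 counts per library.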
